A study of Macaca mulatta with 36 samples.

Results

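The genes described here carry a CD symbol, that is, a cluster of differentiation number given to a cell surface molecule that antibodies recognise. They were taken from the probe sets that the table of names assigns to exactly 1 gene symbol made of CD, a number and at most 1 further letter. CD8A, CD8B, CD44, CD53, CD68 and CD74 were left out, and each gene is represented by its brightest probe set over all arrays. This gave 55 genes among the 14132 genes measured. The study measured RNA of the hippocampus of 18 male rhesus macaques on Affymetrix arrays, 2 per animal and 36 in all. SIVE, simian immunodeficiency virus encephalitis, is a brain inflammation of infected macaques and a model of encephalitis in people with HIV. The SIVE group holds 4 animals with an anti-CD8 treatment, all 6 years old, and 5 without it, 2 to 5 years old. The uninfected Control group holds 2 animals with the anti-CD8 treatment, 4 and 3 years old, and 7 without it, 3 to 8 years old. Antibodies against CD8 deplete T cells and NK cells that carry it. The virus strain, the time after infection, and the antibody and its dose are not given in the sources used here, and no infected animal without encephalitis is in the series.

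CD numbers were introduced to sort white blood cells, and CD14, CD4, CD79A and their like still define monocytes, T cells and B cells in flow cytometry. Many CD molecules are not confined to blood cells. CD81, CD63, CD47 and CD200 are made by neurons, glia or vessels, and CD200 and CD47 are signals by which neurons restrain microglia and macrophages. In SIVE, infected and uninfected macrophages gather around vessels and in the tissue, and activated macrophages and microglia display CD14, CD86 and CD40.

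Values are log2 signals after RMA, a procedure that normalizes arrays and joins the probes of a probe set into 1 value, so a difference of 1 is a 2-fold change. The 2 arrays of an animal were averaged and the animal is the replicate. The array medians lay between 5.59 and 5.75, and the median probe set had a level of 5.65. Over the CD genes the median SD was 0.142 between the 2 arrays of an animal and 0.232 between animals of a group, and the median SE of a difference was 0.106. The 2 arrays of Control 9 correlated at 0.976 and those of the other 17 animals at 0.992 to 0.997. SIVE 2, SIVE 3 and Control 8, all with anti-CD8, had a 3′ minus 5′ signal of the control transcripts of 0.948 to 1.46, against 0.105 to 0.465 in the other 15 animals. A high value can mark RNA that is less intact. Among markers of the tissue, PROX1, a transcription factor of dentate granule cells, stood at 8.44 in SIVE and 8.62 in Control, and the synaptic gene SYT1 at 12.15 and 12.21, neither past the threshold. Other markers of neurons and glia fell and are given with the cell type markers further on. RNA of a whole tissue block was measured, so more cells of a type and more RNA per cell cannot be told apart.

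Of the 55 CD genes, 13 rose in SIVE and 0 fell by limma (adjusted p under 0.05 over all 52707 probe sets tested). The 13 make 23.6% of the CD genes, where 5.72% of all 14132 genes rose and 1.51% fell. They were CD86, CD48, CD14, CD99, CD164, CD83, CD37, CD300A, CD58, CD84, CD63, CD40 and CD81, in order of their differences, and 3 of them rose by at least 2-fold. At an unadjusted p under 0.05, 18 CD genes were higher and 9 lower, and the same rule gave 12.9% and 12.7% of all genes. The median difference over the 55 genes was 0.04, against -0.02 over all genes, with 33 of the 55 above 0. All 13 were among the 33 CD genes whose mean over all animals reached the median probe set level, a class in which 6.79% of all genes rose. None of the 22 dimmer CD genes passed in limma, and 2 of them were higher and 4 lower at an unadjusted p under 0.05. A difference between dim probe sets can be understated. Every SIVE animal lay above every Control animal for 5 genes, CD86, CD48, CD14, CD99 and CD164, while this held for 1.84% of all genes. The plot of differences by role shows the 13 rises spread over 6 of the 9 role groups.

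**Figure D1:**
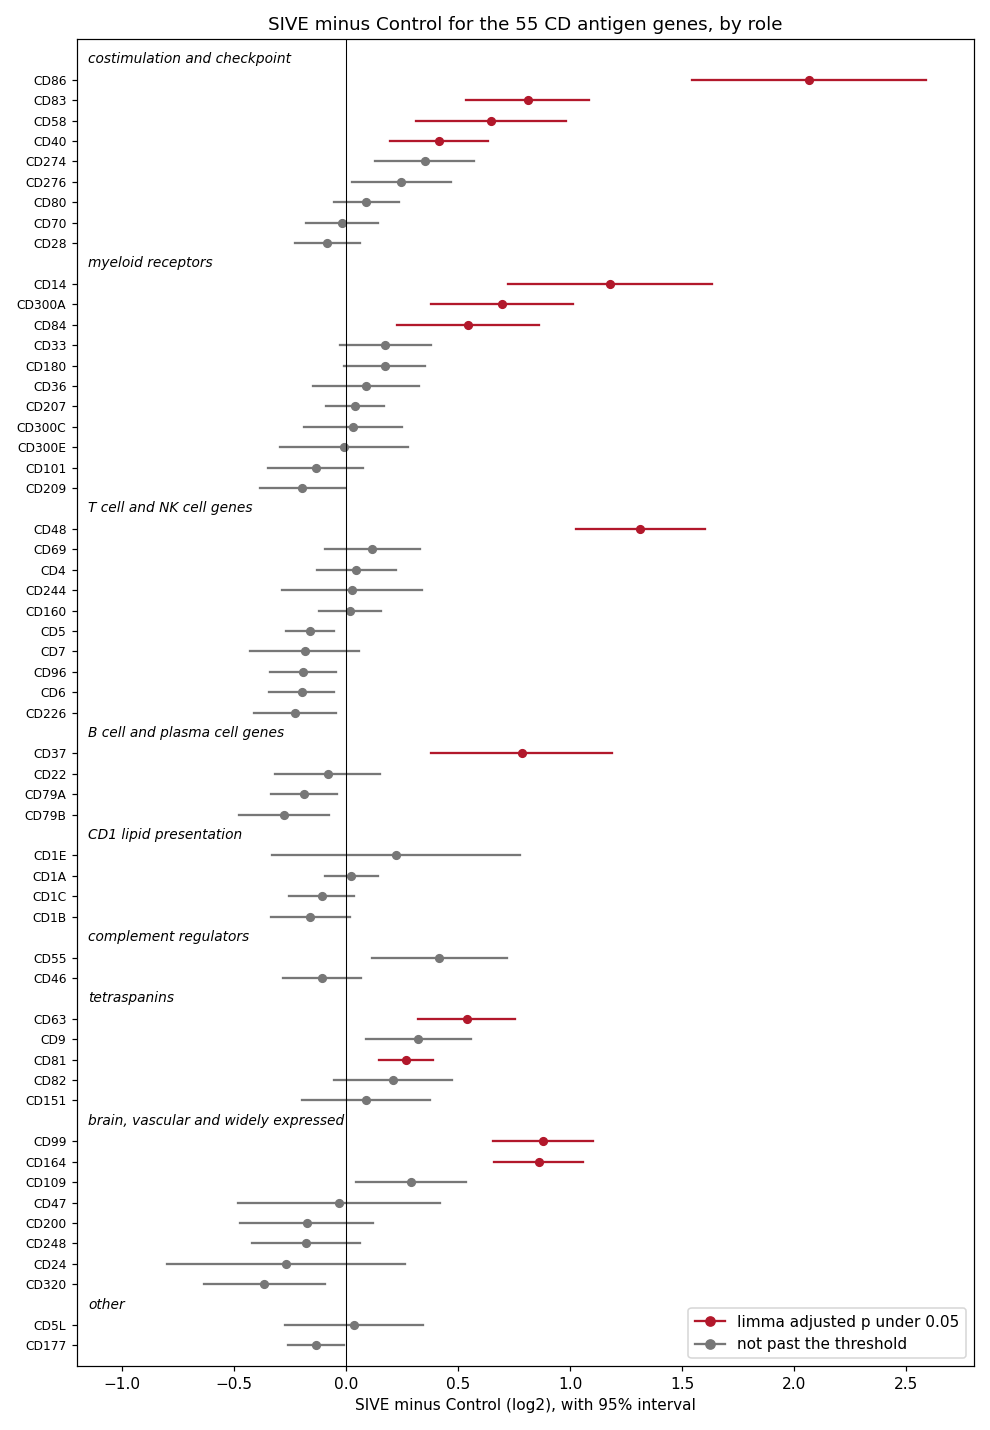
SIVE minus Control (log2, x axis) for each of the 55 CD antigen genes in blocks by role, points with 95% intervals from limma, red where the adjusted p was under 0.05. The 13 red genes all lie above 0, from 0.27 for CD81 to 2.06 for CD86, and no gene below 0 passed.

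Genes of costimulation and checkpoint control, which tell a T cell whether to respond to the antigen shown to it, held the largest rise. Of 9 measured, 4 rose, none fell in limma, and the median difference was 0.35. CD86, a ligand on antigen-presenting cells for CD28 and CTLA4 on T cells, was at 6.32, 7.53 and 8.50 (lowest, median and highest of 9 animals) in SIVE and at 4.86, 5.57 and 6.13 in Control. The lowest SIVE animal lay above the highest Control animal. The difference was 2.06 ± 0.25 (SE, log2), or 4.18-fold (limma adjusted p = 1.64e-05), and the other CD86 probe set rose as well, by 1.01 ± 0.11.

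CD83, a marker of mature dendritic cells that activated microglia also express, was at 7.83, 8.37 and 8.90 in SIVE and at 7.36, 7.50 and 8.08 in Control. Control 3, at 8.08, was the single Control animal inside the SIVE range. CD83 rose by 0.81 ± 0.13 (adjusted p = 0.000487). CD58, a ligand of the T cell adhesion molecule CD2, was at 6.17, 6.83 and 7.14 in SIVE and 5.45, 6.21 and 6.81 in Control. The groups overlapped widely, with 5 SIVE animals above the highest Control, and CD58 was the only one of the 13 with a smaller SD in SIVE (0.29) than in Control (0.42). It rose by 0.65 ± 0.16 (adjusted p = 0.0204). CD40, the receptor through which T cells activate macrophages and B cells, was at 6.69, 6.88 and 7.52 in SIVE and at 6.03, 6.63 and 6.77 in Control. It rose by 0.41 ± 0.11 (adjusted p = 0.0248), with 8 SIVE animals above the highest Control. CD58 and CD40 did not pass with the probe sets of a gene averaged (adjusted p = 0.0657 and 0.0998), nor with the second array of each animal alone (0.0793 and 0.207).

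The other 5 costimulation and checkpoint genes did not pass. CD274, the checkpoint ligand PD-L1, was at 5.06, 5.15 and 5.92 in SIVE and at 4.83, 4.90 and 5.23 in Control, a difference of 0.35 ± 0.11 with a 95% interval of 0.13 to 0.57 (adjusted p = 0.0631). SIVE 7, SIVE 2 and SIVE 9, at 5.58 to 5.92, stood above the rest. CD274 passed in 7 of 29 alternatives, among them without SIVE 3 or without Control 5 (adjusted p = 0.0485 each). The others were the first arrays alone (0.0464), all 36 arrays with the animal as a random block (0.0466) and anti-CD8 as a covariate (0.0465). Quantile normalization (0.0394) and the fit on averaged probe sets (0.0432) gave the call as well. CD274 has a single probe set, so the averaging left its values and its difference unchanged. In that fit only the set of rows fitted and adjusted over was different. CD276, a B7 family relative, differed by 0.25 ± 0.11 (adjusted p = 0.188). CD80, the second ligand of CD28 and CTLA4, differed by 0.09 ± 0.07 with an interval of -0.05 to 0.24, so a rise of the signal of the size seen for CD86 lies outside it. CD28 and CD70 stood at -0.08 and -0.02.

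Of 11 myeloid receptors 3 rose and none fell in limma, with a median difference of 0.09. CD14, the co-receptor through which monocytes and macrophages sense bacterial lipopolysaccharide, was at 7.94, 8.49 and 9.65 in SIVE and at 6.68, 7.43 and 7.87 in Control. The groups did not overlap, although the gap between SIVE 9 or SIVE 6 (7.94 each) and Control 8 (7.87) was small. The rise was 1.18 ± 0.22, or 2.26-fold (adjusted p = 0.00188). The 2 highest SIVE animals were SIVE 3 (9.65) and SIVE 2 (9.26), both with high 3′ signal, and without them and Control 8 the rise was 0.98 ± 0.15.

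CD300A, an inhibitory receptor of myeloid and lymphoid cells, was at 5.82, 6.19 and 6.98 in SIVE and 5.31, 5.63 and 5.86 in Control. It rose by 0.70 ± 0.15 (adjusted p = 0.00803), with 7 SIVE animals above the highest Control, while its other probe set differed by 0.17 ± 0.09 and did not pass. CD84, a self-binding receptor of the SLAM family, rose by 0.54 ± 0.15 (adjusted p = 0.043). Its level was 5.77, 5.92 and 6.76 in SIVE and 4.73, 5.62 and 5.83 in Control, with SIVE 2 and SIVE 3 well above the other SIVE animals. The CD84 call was the least firm. It was lost without any of 13 single animals (SIVE 1, 2, 3, 5, 7 and 8, Control 1, 3, 4, 5, 6, 7 and 9), with a highest adjusted p of 0.0749. None of its 4 dimmer probe sets passed, and these differed by -0.15 to 0.05.

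The other 8 myeloid receptors differed by -0.19 to 0.18 and did not pass. The scavenger receptor CD36 stood at 0.09, the sialic acid binding receptor CD33 at 0.18, and the dendritic cell lectins CD207 and CD209 at 0.04 and -0.19. CD163, which marks perivascular macrophages in SIVE, is the symbol of no probe set in the table of names used and was not analysed here. The same holds for CD3D, CD3E, CD3G and CD34.

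Among 10 T cell and NK cell genes CD48 rose, the other 9 did not pass, and the median difference was -0.07. CD48, a ligand of CD244 and CD2 that sits on nearly all white blood cells and not on T cells alone, was at 7.82, 8.58 and 9.03 in SIVE and at 7.01, 7.20 and 7.54 in Control. The groups were clearly apart. The rise was 1.31 ± 0.14, or 2.49-fold, with the smallest adjusted p of the 55 genes (2.27e-06), and 2 of its 3 other probe sets rose too, by 0.89 and 0.86. CD4, the co-receptor of helper T cells and the main receptor of the virus, which macaque macrophages also carry, was at 5.60, 5.84 and 6.10 in SIVE and at 5.53, 5.78 and 6.19 in Control. The difference was 0.05 ± 0.08 with an interval of -0.13 to 0.22, so a change of 1.5-fold in either direction lies outside it.

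The T cell surface genes CD5 and CD6 and the NK and T cell receptors CD96 and CD226 differed by -0.16 to -0.23, and each was lower at an unadjusted p under 0.05 but not after adjustment (adjusted p 0.0859 to 0.143). CD226 was at 3.53, 3.69 and 3.87 in SIVE and 3.67, 3.85 and 4.37 in Control, and CD6 at 6.03, 6.22 and 6.43 in SIVE and 6.13, 6.42 and 6.63 in Control. For CD6 the 2 other probe sets had the same sign, at -0.20 and -0.31, and for CD5 they stood at -0.20 and -0.07. The groups overlapped in all 4 genes, and CD226, at a mean of 3.68 in SIVE and 3.91 in Control, is dim. CD5 and CD6 passed as lower without Control 7 (adjusted p = 0.042 and 0.0451). CD69, an early activation marker, stood at 0.12 ± 0.10. CD7, CD160 and CD244 stood at -0.18, 0.02 and 0.03.

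Among 4 B cell and plasma cell genes CD37 rose. CD37, a tetraspanin of B cells that myeloid cells also carry, was at 6.89, 7.57 and 8.39 in SIVE and at 6.26, 6.78 and 7.24 in Control. SIVE 6, SIVE 8 and SIVE 9, at 6.89 to 7.13, lay within the Control range, and the rise was 0.78 ± 0.19 (adjusted p = 0.0203). CD79A and CD79B, the signalling chains of the B cell receptor, differed by -0.19 ± 0.07 and -0.28 ± 0.10 (adjusted p = 0.133 and 0.111). CD79A was at 5.56, 5.71 and 5.89 in SIVE and 5.71, 5.92 and 6.10 in Control. CD79B was at 6.80, 7.12 and 7.40 in SIVE and 7.09, 7.31 and 7.71 in Control, and its other probe set stood at -0.26. The B cell lectin CD22 stood at -0.08.

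The CD1 genes, which present lipids to T cells, and the complement regulators had no member past the threshold. CD1A, CD1B and CD1C differed by -0.16 to 0.02. CD1E was at 9.21, 10.61 and 10.84 in SIVE and at 8.48, 10.30 and 10.53 in Control, and its lowest values were those of Control 8, SIVE 2 and SIVE 3, the 3 animals with high 3′ signal. Without these 3 the CD1E difference was 0.30 ± 0.08 and passed (adjusted p = 0.0241), against 0.22 ± 0.26 with all animals. Its other 2 probe sets read no more than 4.82 on average in SIVE and did not pass, so the bright signal rests on 1 probe set. CD55, which breaks up complement convertases on host cells, differed by 0.42 ± 0.14 (adjusted p = 0.108). It passed without SIVE 6 (adjusted p = 0.0363) and with all 36 arrays and the animal as a random block (0.0225). CD46, a cofactor in complement inactivation, stood at -0.11 ± 0.08.

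Tetraspanins, membrane proteins that organise other receptors and line vesicles, had 2 of 5 members higher, and all 5 differences were above 0, with a median of 0.27. CD63, a protein of late endosomes and lysosomes, was at 10.32, 10.49 and 11.06 in SIVE and at 9.88, 10.05 and 10.35 in Control, a rise of 0.54 ± 0.10 (adjusted p = 0.00283). CD81, which astrocytes and microglia carry, was the brightest CD signal and had the smallest rise, 0.27 ± 0.06, or 1.2-fold (adjusted p = 0.0076). Its values in SIVE, 11.92, 12.14 and 12.36, and in Control, 11.78, 11.92 and 12.06, spread so little that 8 SIVE animals lay above the highest Control. The other probe set of CD81, with a mean of 6.05 in SIVE and 6.19 in Control, stood at -0.14 and did not pass. CD9 differed by 0.32 ± 0.11 (adjusted p = 0.109). It passed without SIVE 2 (adjusted p = 0.0335), with anti-CD8 as a covariate (0.0424) and with the second arrays alone (0.0367). CD82 and CD151 stood at 0.21 and 0.09.

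Of 8 genes of the brain, the vessels or many tissues, 2 rose. CD99, an adhesion molecule that leukocytes use to cross endothelium, was at 10.69, 11.16 and 11.54 in SIVE and at 9.92, 10.35 and 10.58 in Control, without overlap. It rose by 0.88 ± 0.11 (adjusted p = 1.59e-05), and its other probe set by 0.94. CD164, a sialomucin of lysosomes and the cell surface, was at 8.70, 9.37 and 9.49 in SIVE and at 8.14, 8.43 and 8.61 in Control, again without overlap. It rose by 0.86 ± 0.10 (adjusted p = 5.34e-06), and its 4 other probe sets differed by 0.32 to 0.84, none of them past the threshold.

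The remaining 6 genes of this group did not pass. CD47 and CD200, the signals that restrain macrophages and microglia, stood at -0.03 ± 0.22 and -0.17 ± 0.14. A second CD47 probe set, as bright in SIVE (9.60 against 9.62), stood at 0.40 ± 0.16 and did not pass (adjusted p = 0.154). CD47 by the brightest probe set was at 8.75, 9.69 and 10.16 in SIVE and at 8.32, 9.77 and 10.13 in Control, and in both groups the lowest values were those of the animals with high 3′ signal. Without these 3 animals CD47 stood at 0.02 ± 0.09 and CD200 at -0.14 ± 0.06, neither past the threshold. CD24, a mucin-like protein of young neurons and B cells, was at 7.43, 8.54 and 9.21 in SIVE and 8.10, 8.75 and 9.45 in Control, a difference of -0.27 with an interval of -0.80 to 0.26. CD320, the cellular receptor for vitamin B12 bound to transcobalamin, was at 7.09, 7.86 and 8.11 in SIVE and 7.82, 7.99 and 8.73 in Control. Its difference, -0.36 ± 0.13, was the most negative of the 55 and did not pass (adjusted p = 0.115). CD109 stood at 0.29 ± 0.12 and the pericyte gene CD248 at -0.18 ± 0.11. Of the last 2 genes, which fall in none of these groups, the macrophage protein CD5L stood at 0.04 and the neutrophil gene CD177 at -0.13. Of the 42 genes that did not pass, 35 had a 95% interval within 0.5 of 0, and none had one that reached a 2-fold change. This holds for the brightest probe set of each gene. A second probe set of CD5L differed by 1.65 ± 0.55, and 2 dimmer ones of CD69 rose, as described at the end.

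**Figure D2:**
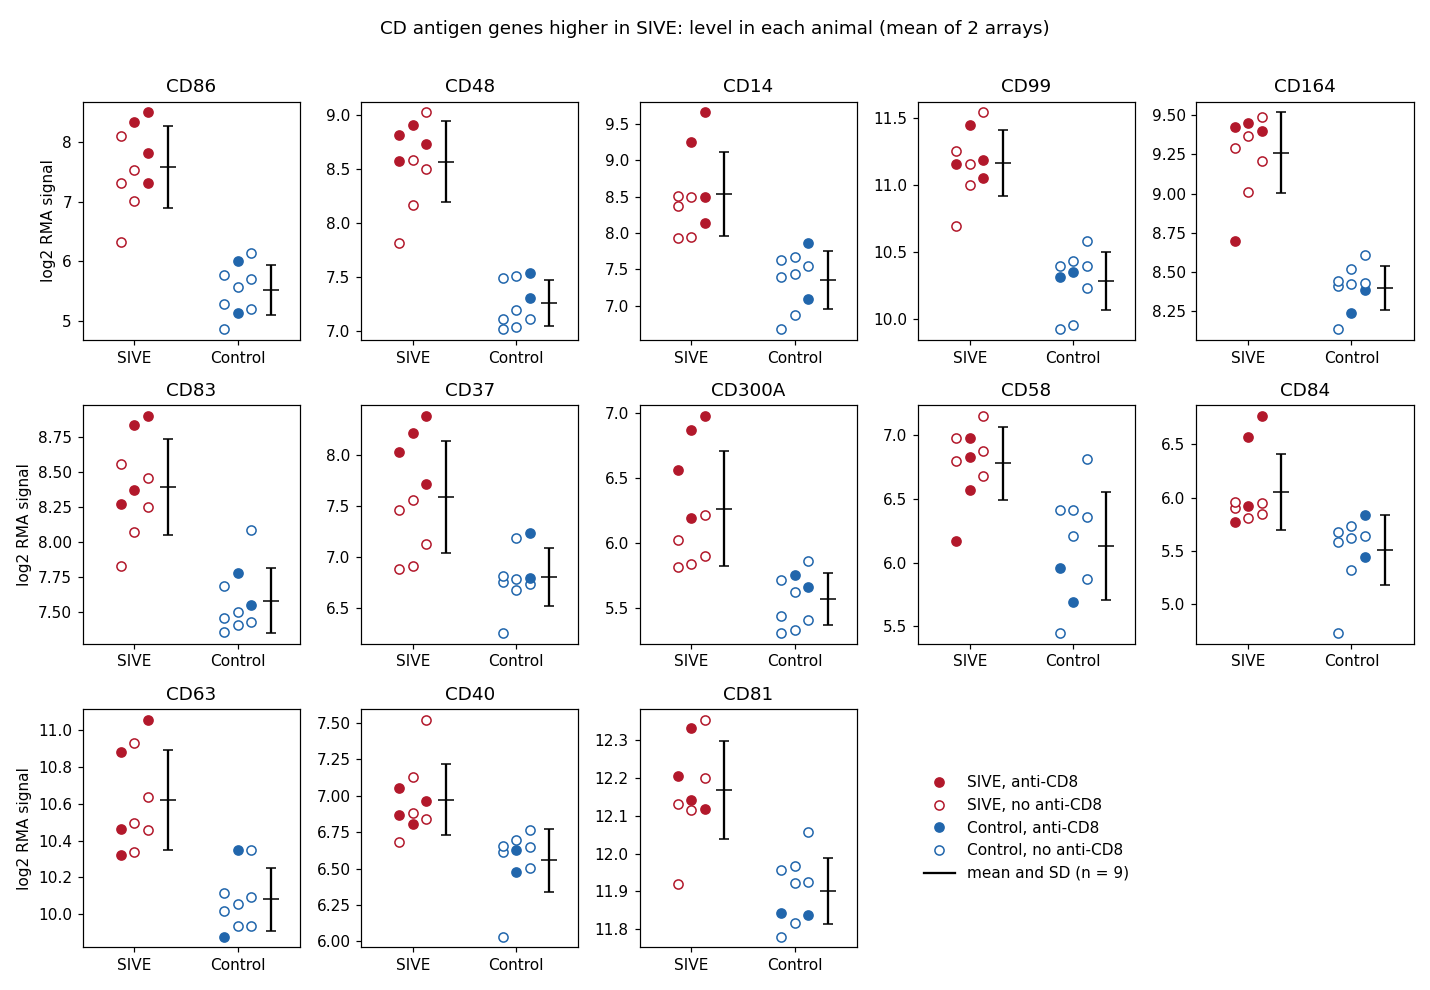
Level (log2 RMA signal, y axis) of the 13 CD antigen genes higher in SIVE, 1 panel per gene, 1 point per animal (mean of 2 arrays), filled with anti-CD8 and open without it, with the mean and SD of 9 animals beside each group. The groups lie apart for CD86, CD48, CD14, CD99 and CD164 and overlap for the other 8 genes.

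The 13 risen genes did not share 1 order of animals. SIVE 7 was the highest SIVE animal for 5 of them, SIVE 3 for 4, SIVE 2 for 3 and SIVE 9 for 1. SIVE 8 was the lowest for 4 and SIVE 9 for 3. SIVE 9 had the highest CD48 (9.03) together with the lowest CD14 and CD37 (7.94 and 6.89). SIVE 2 had the highest CD300A, CD84 and CD63 and the lowest CD58. The median over the 13 genes of an animal's distance from the Control mean lay between 0.41 in SIVE 8 and 1.25 in SIVE 2. The SD among SIVE animals was larger than among Control animals in 12 of the 13, against 46.9% of all genes and 70.5% of all genes that rose. The map of all 55 genes by animal shows these differences.

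**Figure D3:**
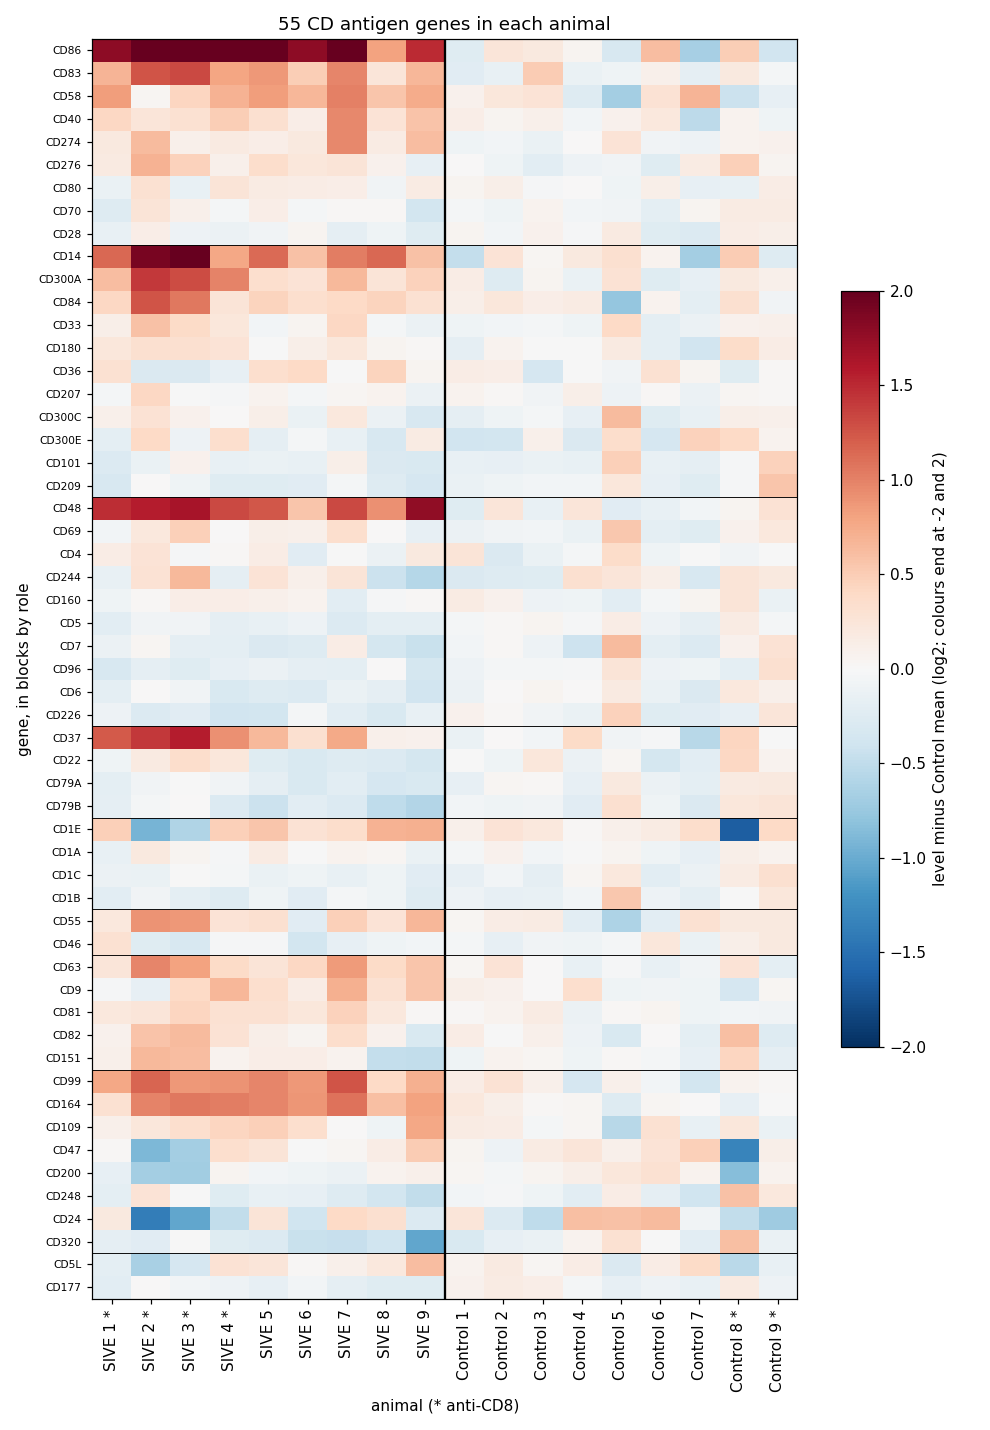
Difference of each animal from the Control mean (log2, colour, saturating at 2 in either direction) for the 55 CD antigen genes (rows, in blocks by role) in 9 SIVE and 9 Control animals (columns, * with anti-CD8). CD86 and CD48 are high in all SIVE animals, and CD1E, CD47 and CD200 are low in SIVE 2, SIVE 3 and Control 8.

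The 13 genes have 21 other probe sets on the array. Of these, 5 rose and none fell in limma, where 3.63% of all probe sets rose and 1.3% fell. The 5 were 2 of CD48 and 1 each of CD86, CD99 and CD40. The used probe set is the brightest, and most of the others were dim. CD86, CD48, CD99 and CD164 had no probe set below 0, and neither had CD58 and CD300A. CD84, CD40 and CD81 had at least 1. Of the 37 other probe sets of genes that did not pass, 2 rose, both of CD69, and none fell in limma.

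**Figure D4:**
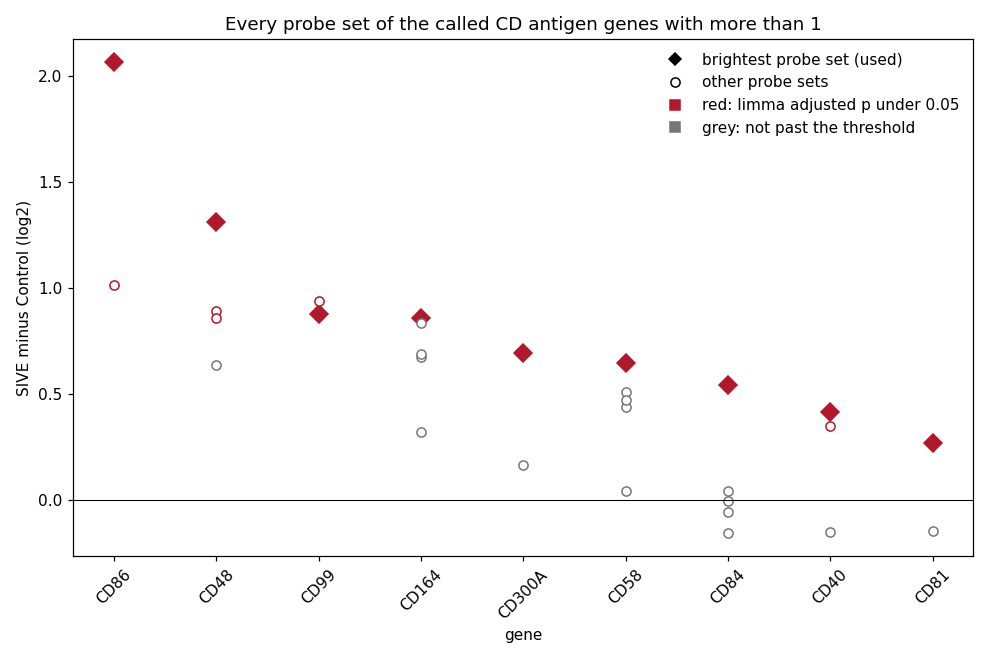
SIVE minus Control (log2, y axis) for every probe set of the 9 risen CD genes that have more than 1, diamonds for the brightest and open circles for the others, red where the limma adjusted p was under 0.05. All probe sets of CD86 and CD99 are red, and the dimmer ones of CD84 and CD81 are grey and near or below 0.

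The same contrast was fitted within the animals with and without anti-CD8. With anti-CD8 (4 SIVE against 2 Control), 6 CD genes rose and 0 fell, where 1.38% of all genes rose and 0.127% fell. They were CD86, CD48, CD99, CD164, CD37 and CD300A. Without anti-CD8 (5 SIVE against 7 Control), 7 rose and 0 fell, where 3.64% of all genes rose and 1.13% fell. They were CD86, CD48, CD14, CD99, CD164, CD83 and CD63. At an unadjusted p under 0.05, 12 CD genes were higher and 7 lower with anti-CD8 (7.56% and 8.46% of all genes), and 15 higher and 7 lower without it (10.6% and 11.9%). Without SIVE 7 the calls without anti-CD8 numbered 4. The effects of CD99 (0.88 ± 0.20 with and 0.86 ± 0.14 without anti-CD8) and CD164 (0.93 ± 0.18 and 0.85 ± 0.12) were nearly equal in size, with 95% intervals of their differences from -0.49 to 0.54 and from -0.38 to 0.54. In the test of the difference between the 2 effects 0 CD genes and 0.0% of all genes passed in limma. At an unadjusted p under 0.05 CD37 (0.62 ± 0.28) and CD300A (0.51 ± 0.23) had the larger effect with anti-CD8 and 0 CD genes the smaller, where 0.722% and 1.17% of all genes did. The 6 calls with anti-CD8 rest on 2 Control animals. Without SIVE 3, 3 calls were made. Without Control 8 or Control 9 a single Control animal with anti-CD8 is left, and most of the 6 calls were lost. Without SIVE 2, SIVE 3 and Control 8 together only Control 9 is left in that group, and the 6 calls were not kept. There the dim gene CD209 stood at -0.84, and Control 9 had the highest CD209 level of all animals (5.27). With age as a covariate, or with the replicate number as a block, 0 calls were made.

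Within SIVE, every animal with anti-CD8 lay above every animal without it for 4 of the 55 genes, CD22, CD37, CD180 and CD320, and below for 0, where this held for 5.14% and 0.927% of all genes. The share of CD genes is thus close to that of all genes. CD37 was at 8.04, 8.22, 8.39 and 7.72 in SIVE 1 to 4, with anti-CD8, and at 7.46, 7.13, 7.57, 6.92 and 6.89 in SIVE 5 to 9, without it. CD22 was at 6.78, 7.05, 7.22 and 7.10 in SIVE 1 to 4 and at 6.63, 6.56, 6.60, 6.58 and 6.51 in SIVE 5 to 9. CD300A was at 6.19, 6.98, 6.87 and 6.56 with anti-CD8 and at 5.90, 5.84, 6.21, 5.82 and 6.02 without it, so that SIVE 1 and SIVE 7 overlapped. The differences were 0.90 ± 0.18 for CD37, 0.46 ± 0.11 for CD22 and 0.69 ± 0.15 for CD300A, and none passed after adjustment in limma (adjusted p = 0.28, 0.304 and 0.28). In this contrast 0 of the 55 genes passed (10 higher and 3 lower at an unadjusted p under 0.05, where 12.6% and 6.44% of all genes were). Without SIVE 2, SIVE 3 and Control 8 they were 0.68 ± 0.21, 0.36 ± 0.13 and 0.42 ± 0.16. SIVE 1 and SIVE 4, with anti-CD8, had a low 3′ signal (0.105 and 0.279). That they lay above every SIVE animal without anti-CD8 for CD37 and CD22 follows from how these 2 genes were picked. The part of the 3′ signal in these differences was not tested. The animals with anti-CD8 were older than all others in the SIVE group, so age and anti-CD8 cannot be told apart within SIVE.

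**Figure D5:**
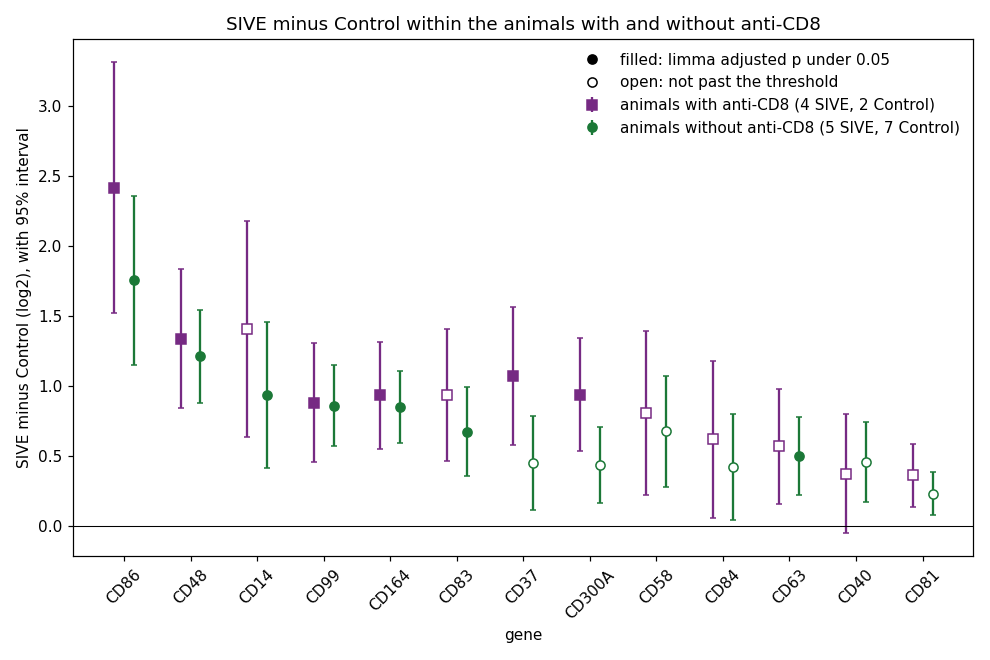
SIVE minus Control (log2, y axis, with 95% intervals) for the 13 risen CD genes in animals with anti-CD8 (squares, 4 SIVE and 2 Control) and without it (circles, 5 SIVE and 7 Control), filled where the limma adjusted p was under 0.05. The effects lie close together for CD99 and CD164 and farthest apart for CD86, CD37 and CD300A.

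Ligands, receptors and signalling partners of the CD genes that carry other symbols were read from a list of 53 genes, of which 41 were measured. Of these, 12 rose and none fell in limma, where 5.72% of all genes rose and 1.51% fell, with a median difference of 0.10. Of the 5 partners of CD14 and CD180, 4 rose. TLR2 rose by 1.53 ± 0.11 (SE, log2), LY96, which lets TLR4 bind lipopolysaccharide, by 1.19 ± 0.19, TLR4 by 1.00 ± 0.20 and LY86, the partner of CD180, by 0.78 ± 0.22, while LBP did not pass. All 5 measured partners of the B cell genes, which myeloid cells use as well, rose. They were BLNK (1.46 ± 0.19), LYN (1.15 ± 0.16), SYK (0.72 ± 0.19), PTPN6 (0.66 ± 0.13) and BTK (0.43 ± 0.11). Of 6 measured complement genes 2 rose, CFB by 1.77 ± 0.20 and CFI by 0.76 ± 0.14, while C5, C6, C7 and C9, at -0.13 to 0.11, did not pass. Of 3 measured partners of the T cell receptor and CD4, PTPRC, the phosphatase CD45 of all white blood cells, rose by 1.52 ± 0.16. The other 2, LAT and ZAP70, stood at 0.04 and -0.12 and did not pass. PTPRC is counted again among the macrophage and myeloid markers below.

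None of the 8 measured partners of costimulation and checkpoint genes passed in limma, with 2 higher and 1 lower at an unadjusted p under 0.05 (12.9% and 12.7% of all genes). CTLA4, the inhibitory receptor for CD86, stood at -0.20 ± 0.07 (adjusted p = 0.119), and PDCD1LG2, a checkpoint ligand like CD274, at 0.21 ± 0.06 (adjusted p = 0.0559). None of the 5 SLAM family genes, the relatives of CD48 and CD84, passed either (2 higher at an unadjusted p under 0.05), although SLAMF7 stood at 0.67 ± 0.20 (adjusted p = 0.0627). SIRPA, the receptor of CD47, stood at 0.16, and CD200R1, the receptor of CD200, at 0.04.

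Marker genes of cell types under other symbols stood as follows beside these results, where 5.72% of all genes rose and 1.51% fell. Of 11 measured macrophage and myeloid markers 4 rose, LYZ, VSIG4, PTPRC and AIF1, and the mean level over the 11 ranged from 6.98 to 8.02 in SIVE and from 6.31 to 6.80 in Control. CSF1R, ITGAM and TYROBP did not pass. Of 5 homeostatic microglia markers SLC2A5 rose, with a mean level of 6.47 to 7.76 in SIVE and 6.46 to 7.57 in Control. The other 4 did not pass and stood below 0, GPR34 at -0.55, P2RY12 at -0.44, CX3CR1 at -0.15 and TMEM119 at -0.10. Of 7 T cell and NK cell markers GZMB rose, by 2.36 ± 0.34, and the other 6 did not pass (mean level 7.90 to 8.50 in SIVE, 7.52 to 7.96 in Control). Of 6 B cell and plasma cell markers JCHAIN rose, by 2.81 ± 0.41, and the other 5 did not pass (4.82 to 5.86 and 4.69 to 5.05). For GZMB and JCHAIN all 9 SIVE animals lay above the highest Control. Of 8 endothelial and pericyte markers CDH5, PECAM1 and VWF rose (6.68 to 7.40 and 6.45 to 7.07). Markers of neurons and glia fell in part. Of 4 neuron markers TUBB3 fell by 0.51 and the other 3, among them STMN2 at -0.22, did not pass (10.12 to 10.59 and 10.09 to 10.87). Of 3 oligodendrocyte markers MBP fell by 0.32 and UGT8 by 0.58 (11.02 to 11.51 and 11.21 to 11.66). Of 6 astrocyte markers GFAP rose by 0.36 and the glutamate transporter SLC1A2 fell by 0.52 (11.37 to 11.68 and 11.33 to 11.80). None of 5 dentate granule and pyramidal cell markers passed, and none of 5 choroid plexus or 2 red blood cell markers (0 higher in limma, with 1 red blood cell marker lower at an unadjusted p under 0.05). The part of these cell types in the differences of the CD genes was not tested.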

How the data were processed

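Per the submitters' processing notes the authors used RMA (version not given in the sources used here). Deposited were log2 signals, as read from their range, which ends at 14.49. Of 52865 probe sets, 99 Affymetrix control and 59 reporter sets were left out and 52707 tested. Arrays give no counts, so their number limits the precision. No column lacked a sample.

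Symbols came from the table pairing probe sets with genes, in which 24969 probe sets have 1 symbol. The Entrez ID of 53 of the 55 CD genes carries the same symbol in RefSeq (T2T-MMU8v2.0). The 55 genes have 113 probe sets, and 30 genes have more than 1. No sequences are shown.

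Each animal's value was the mean log2 signal of its 2 arrays. Two-sided moderated tests came from limma 3.58.1 (lmFit and eBayes, R 4.3.3), with Benjamini-Hochberg adjustment across all probe sets and calls at an adjusted p under 0.05. The SIVE against Control fit held all 18 animals. The anti-CD8 comparisons used 1 mean for each group and label with a shared spread. On simulated data with 52707 probe sets the SIVE against Control fit recovered 86.6% of 1.5-fold and 92.5% of 2-fold changes, with 3.65% of calls false. With anti-CD8 alone it recovered 34.3% and 73.1%. The simulation changed fewer probe sets than were called in the real data. Its noise was independent between probe sets and had the same SD in both groups, so these rates need not hold for the real data.

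By rule, all called genes were named with the lowest, median and highest animal of each group, as were the 5 genes with the most negative differences, and CD4, CD14, CD79A, CD79B and CD274 whatever their values. The members and lists were chosen with earlier results of these data known, and values of other genes were added after they were seen. Tables and figures used Python 3.11.15, pandas 2.3.3 and matplotlib 3.10.9.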

Additional observations from a re-analysis of the deposited data

Results flagged for a closer look

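In 10 of the 110 sets of 9 animals formed by the 55 CD genes in SIVE and in Control, the highest or lowest animal stood apart, its gap to the nearest animal taking more than 0.493 of the whole range (Dixon's critical value at 95%). Chance flags about 1 in 20 sets. Control 8, which has high 3′ signal, accounted for 5 of them. It was the lowest Control animal for CD1E (8.48, next 10.16, gap ratio 0.819), CD200 (9.39, next 10.20, gap ratio 0.698) and CD47 (8.32, next 9.54, gap ratio 0.672), and the highest for CD151 (8.55, next 8.20, gap ratio 0.582) and CD82 (8.31, next 7.86, gap ratio 0.494). The part of the 3′ signal in these values was not tested.

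Control 7 was lowest for CD40 (6.03, next 6.48, gap ratio 0.606), and Control 5 was lowest for CD84 (4.73, next 5.32, gap ratio 0.535) and highest for CD300C (6.20, next 5.68, gap ratio 0.591). In SIVE, SIVE 2 was highest for CD207 (5.59, next 5.24, gap ratio 0.647) and SIVE 9 lowest for CD320 (7.09, next 7.67, gap ratio 0.564). CD40 and CD84 are among the 13 risen genes. Without Control 5 the CD84 difference was 0.45 (adjusted p = 0.0612).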

How the results depend on the processing

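The number of CD genes higher in SIVE stayed between 11 and 15 in every alternative but 1, the replicate number as a block, which gave 8. Same-numbered animals did not deviate together (correlations of -0.49 to 0.09, and 0 of 9 SIVE animals closest to their own number). This gave no sign of a pairing by number, but cannot show that same-numbered animals had no handling in common. Without single animals the number ranged from 12 to 14 for higher and 0 to 2 for lower (2 without Control 7). It was 4 to 8 for animals without anti-CD8 (4 without SIVE 7) and 3 to 8 for animals with it (3 without SIVE 3). The last range leaves aside the omission of Control 8 or Control 9, after which a single Control animal with anti-CD8 remains. None of the 13 changed sign in 30 alternatives, and 7 (CD86, CD48, CD14, CD99, CD164, CD83 and CD63) passed in all. With the block CD37, CD40, CD58, CD84 and CD300A did not pass (limma adjusted p 0.0512 to 0.181), and with age as a covariate CD84 did not (0.0533). With the second arrays alone CD40, CD58 and CD84 did not pass. With probe sets averaged CD40, CD58, CD81 and CD84 did not pass (limma adjusted p = 0.0998, 0.0657, 0.659 and 0.412). Their differences were then 0.21, 0.42, 0.06 and 0.08. The 0 genes lower became 1 with all 36 arrays and the animal as a random block, 5 with anti-CD8 as a covariate (CD5, CD6, CD79A, CD79B and CD320), 1 with probe sets averaged (CD6), 3 with the first arrays alone (CD5, CD79B and CD96) and 1 without SIVE 2, SIVE 3 and Control 8 (CD79B). Without anti-CD8 the block left 4. With anti-CD8 it left 0, and age as a covariate left 0. The omission of these 3 animals left Control 9 as the only Control animal with anti-CD8, so its calls are not counted. The causes were not tested. The difference between the effects and anti-CD8 within SIVE gave 0 in each alternative run for them, single-animal omissions included. Quantile normalization, averaged probe sets and all 36 arrays were not run for the anti-CD8 comparisons.

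Uncalled genes near 0 changed sign. With the first arrays alone CD4 stood at -0.030, CD5L at -0.0087 and CD300E at 0.051, and with the second arrays alone CD160 stood at -0.045. With anti-CD8 as a covariate CD47 stood at 0.104, CD244 at -0.030 and CD300C at -0.0045, and with probe sets averaged CD47 at 0.092 and CD244 at -0.02. Without SIVE 2, SIVE 3 and Control 8 CD47 stood at 0.020, CD151 at -0.013, CD244 at -0.070 and CD300C at -0.0012. With arrays centred CD70 stood at 0.0068 and CD300E at 0.018, and with quantile normalization CD70 at 0.029 and CD300E at 0.024. Without single animals CD5L ranged from -0.038 to 0.121, CD47 from -0.197 to 0.077, CD70 from -0.053 to 0.024, CD160 from -0.0093 to 0.050, CD207 from -0.0065 to 0.061, CD244 from -0.053 to 0.101, CD300C from -0.0026 to 0.108 and CD300E from -0.060 to 0.050.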

Other observations

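CD5L, a secreted protein of macrophages, has a second probe set whose mean was nearly as bright in SIVE as that of the one used. It was at 4.52, 8.60, 8.11, 8.28, 6.72, 8.12, 5.02, 5.68 and 4.43 in SIVE 1 to 9, while Control animals lay between 4.48 and 6.11 with a median of 4.79. In 5 SIVE animals the signal lay above every Control, and in SIVE 1 and SIVE 9 it lay near the lowest Control. The difference was 1.65 ± 0.55 (SE, log2) and did not pass (limma adjusted p = 0.0972). The brightest probe set, used above, stood between 5.95 and 7.22 in SIVE and 6.05 and 6.99 in Control. With both averaged CD5L passed, at 0.84 (adjusted p = 0.0467). The 5 animals with high signal include 3 of the 4 with anti-CD8 and 2 of the 5 without it.

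CD69 gave another case in which the brightest probe set and others differ, as CD47 did above. Its 2 dimmer probe sets rose by 0.36 ± 0.07 and 0.34 ± 0.09 (adjusted p = 0.0058 and 0.0257), with means below 4.1 in SIVE, while the brightest stood at 0.12. With the 3 averaged CD69 passed, at 0.27 (adjusted p = 0.0102).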
